A study of Sus scrofa with 8 samples.

Results

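Fatty acid and branched-chain amino acid oxidation was followed through 39 genes of mitochondrial and peroxisomal beta-oxidation and of leucine, isoleucine and valine breakdown, chosen by name. Probe sets annotated with exactly 1 gene symbol were found for 33 of them, out of 6006 named genes tested in the series. ACAT1, EHHADH, MCCC1, HIBADH, ALDH6A1 and PCCB had no such probe set and were not analysed here. The 33 genes had 44 probe sets, and each gene was read from its probe set of highest mean. All 33 passed the filter on low values, which used the mean over both breeds. The study compared total RNA of backfat, the fat under the skin of the back, taken from the middle of the pig, on the Affymetrix GeneChip Porcine Genome Array. The groups were 4 samples of KNP pigs aged 7 months and 4 samples of YS pigs aged 6 months, kept under the same conditions, with no treatment named. A label gives YS as Yorkshire, while KNP is not spelled out, and breed and age cannot be told apart.

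Beta-oxidation shortens fatty acids inside mitochondria. Carnitine carries the acyl chain across the mitochondrial membranes, acyl-CoA dehydrogenases open each round and pass electrons to the electron transfer flavoprotein, and a hydratase, a hydroxyacyl-CoA dehydrogenase and a thiolase complete it. Double bonds already present in a chain need further enzymes, the enoyl-CoA isomerases and the dienoyl-CoA reductase DECR1. Peroxisomes shorten the very long and branched chains. White adipocytes also break down branched-chain amino acids by a route with the same type of dehydrogenase, and its products can enter fatty acid synthesis.

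Values are log2(signal + 16), where signal is the deposited linear intensity, and a mean carries its SD (n = 4 arrays). Differences are KNP minus YS on this log2 scale, so that they understate the change of dim probe sets. P-values are from limma, adjusted by Benjamini-Hochberg over all 17999 probe sets tested. The level of different probe sets is not comparable on this array, so genes are compared by their differences and not by their height. The labels do not say whether samples came from separate animals, so the SDs and p-values measure only the spread between these samples. Since the tissue was measured whole, fewer cells of a type and less RNA per cell cannot be told apart.

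Of 12 adipocyte markers measured, 10 lay on all 8 arrays above the no-target level, the 95th percentile of 23 control probe sets without a target in pig RNA (40.6 to 161 in signal over the arrays). Skeletal muscle markers stood apart on KNP replicate 2: the median of 19 measured genes of 32 listed lay 3.97 above the gene means there, and between -0.82 and -0.017 on the other 7 arrays. All 19 had the higher mean in KNP, with a median difference of 1.04. For 1 of them, TPM2, the breeds did not overlap, at 10.07 to 11.49 in KNP and 9.15 to 9.89 in YS, beside 1.96% of all probe sets. The summed signal of the muscle markers was 112585 on KNP replicate 2, 19334 to 37116 on the other 3 KNP arrays and 20098 to 22459 on the YS arrays. CA3 and TPM1 weigh heavily in this sum, since they were bright on all 8 arrays, at 12.91 to 14.76 and 12.03 to 13.08 in log2. On KNP replicate 1 CA3 was at 14.76, while MYLPF was at 5.33 and TNNC2 at 4.76. As a measure of RNA quality, the log2 signal of 3' over 5' probe sets of the housekeeping controls (the 3'/5' difference) was 9.13 on KNP replicate 1, 5.92 on KNP replicate 2 and 4.43 on YS replicate 4, against 2.12 to 3.18 on the other 5. Marker lists for fibroblasts and for T and NK cells had lower means in KNP for 6 of 6 measured genes each, with medians of -0.39 and -0.68. All KNP arrays lay below all YS arrays for 1 gene of each list, MFAP5 and CCL5, and for 1 adipocyte marker, LPL. Over all probe sets, 1.96% were without overlap in either direction. The summed fibroblast signal was 26285 to 52190 in KNP and 27289 to 66663 in YS, and that of T and NK cells 491.6 to 1842 and 917 to 2683. The part of these lists in the results below was not tested.

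No member of the pathway passed the test between the breeds. With limma, 0 of 33 genes had an adjusted p under 0.05, where 0% of all probe sets did, and the smallest adjusted p among members was 1. Before adjustment 2 members had a p under 0.05, DECR1 and the carnitine acetyltransferase CRAT, beside 2.84% of all probe sets. The 4 KNP values lay wholly on one side of the 4 YS values for 1 member, DECR1, beside 1.96% of all probe sets. The median size of a member's difference, 0.23, lay under its median SE, 0.33, and the 95% interval reached a median of 0.76 to either side.

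**Figure D1:**
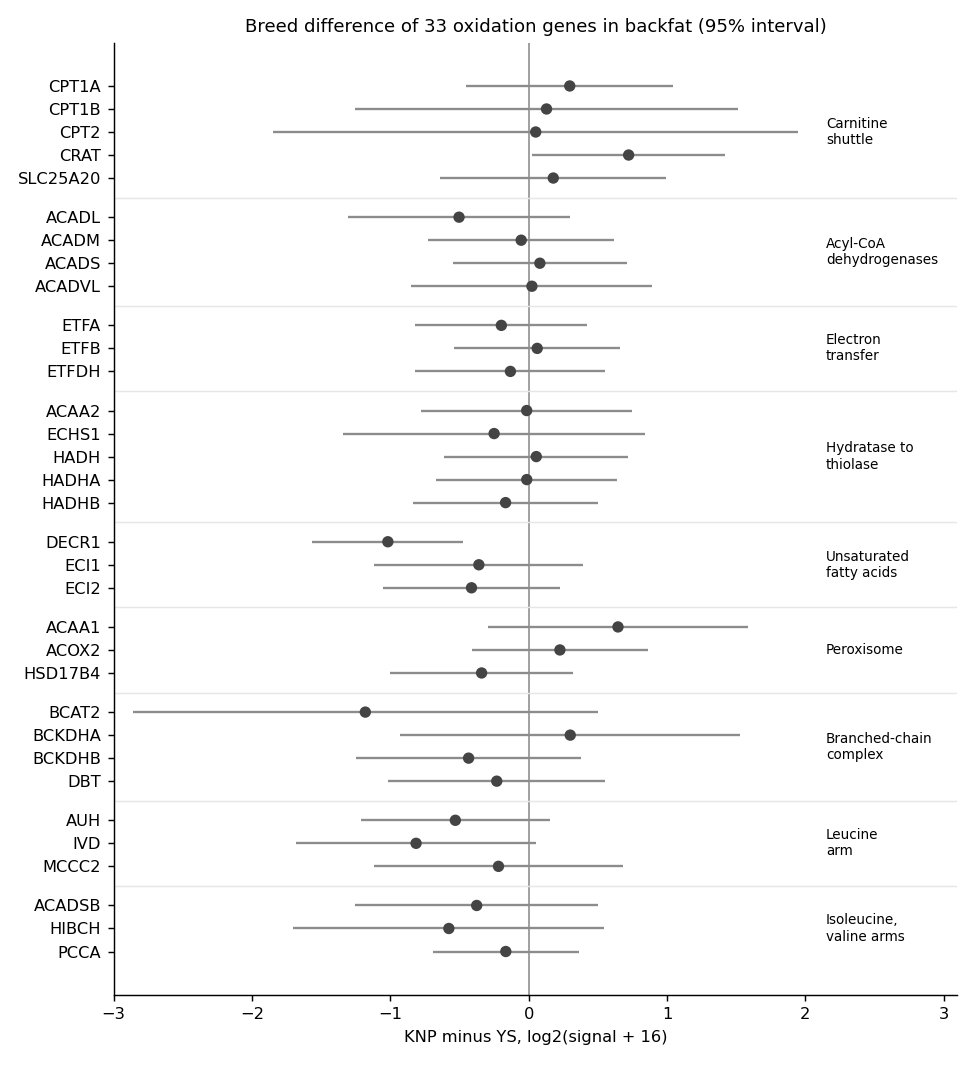
The difference KNP minus YS in log2(signal + 16) is plotted for 33 genes grouped by role, with the 95% interval from limma as a line (n = 4 arrays per breed). The interval excludes 0 for DECR1 (-1.56 to -0.47) and CRAT (0.025 to 1.42) before adjustment for multiple tests, and 9 of the 10 points of branched-chain amino acid breakdown lie left of 0.

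The fatty acid and the branched-chain members were counted apart, with no test between them. Of the 23 fatty acid genes, 12 had the lower mean in KNP and 11 the higher, with a median difference of -0.014. That count was 16 of 23 without YS replicate 4 and with array weights, and the median ran from -0.12 without KNP replicate 1 to 0.033 without YS replicate 1. Of the 10 branched-chain genes, 9 had the lower mean in KNP, with a median of -0.41. Over all 6006 named genes 48.2% had the lower mean in KNP and the median was 0.013. The branched-chain median was -0.23 without YS replicate 1 and -0.58 without YS replicate 4, and 8 of 10 genes were lower without KNP replicate 1. These counts describe genes that share arrays and are not a test of the route as a whole. Read from the probe set used for each gene, no branched-chain gene reached an unadjusted p of 0.05 in limma.

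The level of the members as a group varied from array to array. Around the gene means, the median of the 33 members was -0.029, 0.040, -0.18 and -0.14 on KNP replicates 1 to 4, and 0.29, 0.15, 0.23 and -0.33 on YS replicates 1 to 4. YS replicate 4 thus lay below all 4 KNP arrays and the other YS arrays above them. Of the 33 members, 13 had their highest value on YS replicate 1 and 11 their lowest on YS replicate 4. The medians of the 12 adipocyte markers were 0.42, 0.31, 0.38 and -0.57 on the same 4 YS arrays, and -0.0003 to 0.29 on the KNP arrays. Their part in the members' values was not tested. The branched-chain genes alone ran from -0.51 on KNP replicate 3 to 0.21 on KNP replicate 4, and from -0.48 on YS replicate 4 to 0.73 on YS replicate 1, so that the breeds overlapped.

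**Figure D2:**
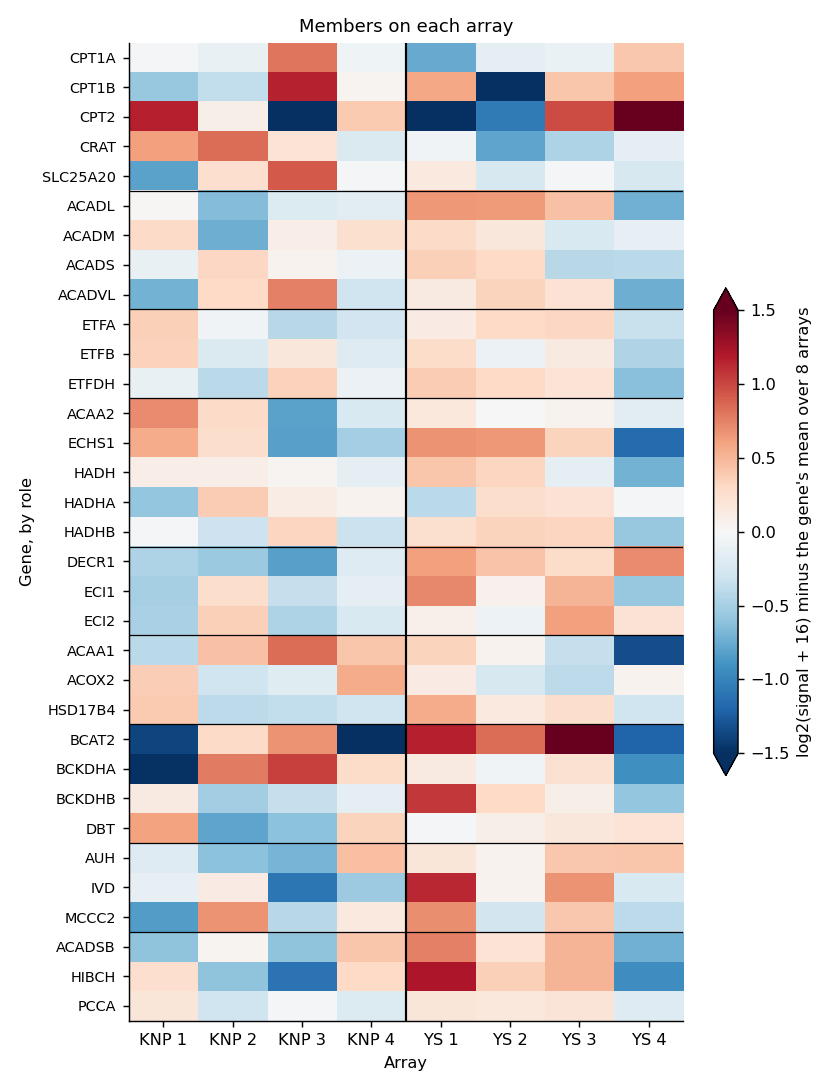
Each row is a gene, in the order of its role, and each column an array; colour gives log2(signal + 16) minus the gene's mean over 8 arrays, capped at 1.5 in either direction. The column of YS replicate 4 holds the lowest value of 11 genes and that of YS replicate 1 the highest of 13, while the DECR1 row is below its mean on all 4 KNP arrays and above it on all 4 YS arrays.

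Among the enzymes for unsaturated fatty acids, DECR1 had the smallest p of the members. DECR1 is the mitochondrial dienoyl-CoA reductase, which removes double bonds that beta-oxidation cannot pass, as in linoleic acid. Its log2 values were 9.59, 9.50, 9.24 and 9.86 on KNP replicates 1 to 4 and 10.67, 10.49, 10.33 and 10.77 on YS replicates 1 to 4. Every KNP array lay below every YS array, with a gap of 0.47 between the nearest of them. In linear signal, it spanned 588 to 912 in KNP and 1270 to 1729 in YS, above the no-target level on all 8 arrays. The difference was -1.02 ± 0.24 (SE), with a 95% interval of -1.56 to -0.47. DECR1 stood 15 in order of p among the 17999 probe sets, with an unadjusted p of 0.00222 in limma, and its adjusted p was 1. It was singled out for this difference in earlier work on the same arrays, so the separation is a description.

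Leaving out 1 array at a time gave DECR1 differences between -0.92 and -1.12. With only the 5 arrays of smaller 3'/5' difference it was -0.95, and with that difference as a covariate -1.03. Its lowest adjusted p over all alternatives was 0.525. KNP replicate 2, the array with muscle signal, is among those left out in that range.

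The other enzymes of this step are the enoyl-CoA isomerases ECI1 and ECI2, which move a double bond into the position that the hydratase accepts. ECI2 was at 9.45, 10.29, 9.46 and 9.70 on the KNP arrays and at 10.01, 9.86, 10.54 and 10.15 on the YS arrays. KNP replicate 2 lay among the YS values and the other 3 KNP arrays below all of them. Its difference was -0.41 ± 0.28 (SE), and a second, dimmer ECI2 probe set had the opposite sign, at 6.80 ± 0.38 in KNP and 6.21 ± 1.24 in YS, above the no-target level on 4 of 8 arrays. ECI1 was at 11.54 ± 0.33 and 11.90 ± 0.57 with overlapping arrays. All 3 genes of the step had the lower mean in KNP, and none passed the test.

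DECR1 was then set against 18 measured partners of mitochondrial beta-oxidation, from the carnitine shuttle to the thiolases, each centred on its own mean over 8 arrays. DECR1 minus the median of its partners was -0.44, -0.66, -0.89 and -0.060 on KNP replicates 1 to 4, and 0.36, 0.22, 0.056 and 1.08 on YS replicates 1 to 4. All KNP values were below 0 and all YS values above, with KNP replicate 4 and YS replicate 3 close together. The means were -0.51 ± 0.35 in KNP and 0.43 ± 0.45 in YS, a difference of -0.94, which became -0.73 without YS replicate 4. On that array the partner median was at its lowest, -0.37, and DECR1 at its highest, 0.71. The median difference of the partners themselves was -0.014, with 10 of 18 lower in KNP. The ratio of DECR1 to a single partner was without overlap for 7 of 18 partners, lower in KNP each time, namely CPT1A, ACADS, ACADM, HADH, ACAA2, ETFB and ETFDH. The same held for the ratio of DECR1 to 48.8% of all other named genes, so the lower ratio in KNP was not particular to these partners.

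**Figure D3:**
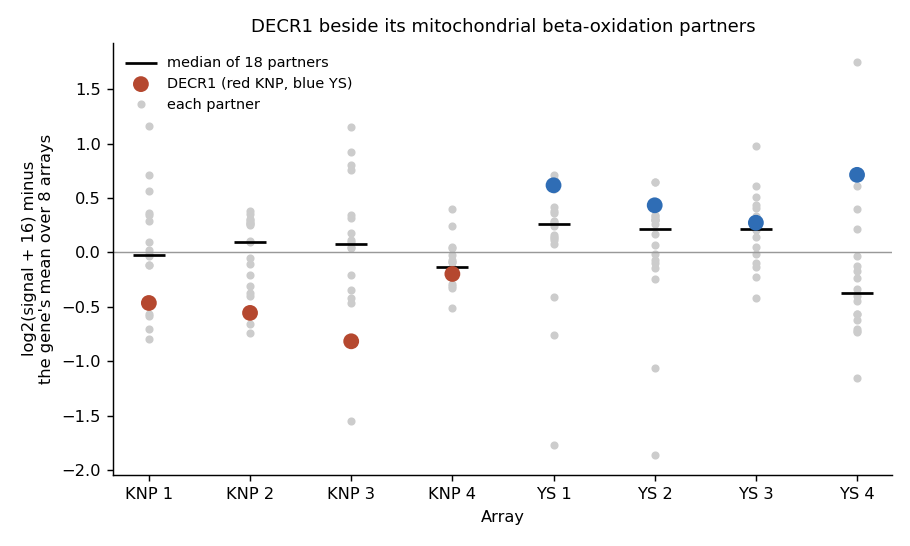
For each array, the centred log2(signal + 16) of DECR1 (large points, red for KNP and blue for YS) is drawn with those of 18 partners (grey points) and their median (black bar). DECR1 lies below the partner median on all 4 KNP arrays and above it on all 4 YS arrays, by as little as 0.060 on KNP replicate 4 and 0.056 on YS replicate 3.

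In the carnitine shuttle all 5 members had the higher mean in KNP, by 0.051 to 0.72, and none passed the test. This shared sign held for CRAT and CPT1A with each array left out, but not for the other members. SLC25A20 differed by -0.10 without KNP replicate 3, CPT1B by -0.47 without YS replicate 2, and CPT2 by -0.53 without YS replicate 1, -0.43 with the 3'/5' covariate and -0.051 with a pseudocount of 64. CRAT, which transfers acetyl groups between coenzyme A and carnitine, was at 10.81, 11.03, 10.40 and 9.98 on the KNP arrays and at 10.15, 9.40, 9.73 and 10.05 on the YS arrays. The 3 highest values were KNP arrays, while KNP replicate 4 lay among the YS values. Its difference was 0.72 ± 0.31 (SE), with an unadjusted p of 0.0437 and an adjusted p of 1 in limma. The highest CRAT value was on KNP replicate 2, where muscle markers were high; without that array the difference was 0.56, and on the 5 arrays of smaller 3'/5' difference 0.43. CRAT and DECR1 were the members with the largest differences in opposite directions among those measured above the no-target level on every array.

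CPT1A makes acylcarnitines at the outer mitochondrial membrane, the step that limits entry of long chains. It was at 10.67, 10.59, 11.50 and 10.63 on the KNP arrays and at 9.94, 10.56, 10.60 and 11.10 on the YS arrays. Apart from KNP replicate 3 and YS replicate 1 and 4 the values lay within a narrow band, and the difference of 0.30 ± 0.33 (SE) became 0.079 without KNP replicate 3 and 0.48 without YS replicate 4. SLC25A20, the carnitine-acylcarnitine carrier of the inner membrane, was at 10.71 ± 0.71 in KNP and 10.53 ± 0.19 in YS. CPT1B, the muscle form of CPT1A, ran from 5.70 to 7.42 in KNP and from 4.40 to 6.87 in YS and was above the no-target level on 1 KNP and 2 YS arrays. On KNP replicate 2 it was at 5.89, among its lower values. CPT2, which returns the acyl group to coenzyme A inside the mitochondrion, was also read near background, from 4.77 to 7.49 in KNP and from 4.56 to 8.07 in YS, with 1 KNP and 2 YS arrays above the no-target level.

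The acyl-CoA dehydrogenases differ in the chain length they accept. ACADL, the long-chain enzyme, was at 11.17, 10.49, 10.95 and 10.98 on the KNP arrays and at 11.80, 11.79, 11.58 and 10.42 on the YS arrays. YS replicates 1 to 3 lay above all KNP arrays and YS replicate 4 below all of them. Its difference of -0.50 ± 0.36 (SE) was -0.83 without YS replicate 4. ACADS, for short chains, was at 9.39, 9.82, 9.56 and 9.42 in KNP and at 9.87, 9.81, 9.09 and 9.10 in YS. Its YS arrays lay in 2 pairs on either side of most KNP values, and the difference of 0.081 ± 0.28 (SE) changed sign with array weights. ACADM, for medium chains, was at 11.93 ± 0.48 and 11.98 ± 0.24, and ACADVL, for very long chains, at 10.89 ± 0.64 and 10.86 ± 0.49. The 95% intervals of these were -0.73 to 0.62 and -0.85 to 0.89. A second, dimmer ACADVL probe set had the opposite sign, at 6.72 ± 1.66 in KNP and 7.23 ± 0.35 in YS, a difference of -0.51. It was above the no-target level on 6 of 8 arrays.

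The electron transfer flavoprotein takes the electrons of all these dehydrogenases, IVD and ACADSB included, and ETFDH passes them to the respiratory chain. ETFA, its alpha subunit, was at 11.61, 11.20, 10.83 and 10.96 on the KNP arrays and at 11.37, 11.54, 11.56 and 10.92 on the YS arrays. ETFDH was at 11.40, 11.12, 11.86 and 11.43 in KNP and at 11.90, 11.82, 11.72 and 10.89 in YS. Both sets of values overlapped widely, and ETFDH was lowest on YS replicate 4. The differences were -0.20 ± 0.28 (SE) for ETFA and -0.13 ± 0.30 (SE) for ETFDH. That of ETFA was -0.092 without KNP replicate 3 and -0.35 without KNP replicate 1, and that of ETFDH -0.021 without KNP replicate 2 and -0.36 without YS replicate 4. ETFB, the beta subunit, was at 11.15 ± 0.28 in KNP and 11.09 ± 0.32 in YS, a difference of 0.062.

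The hydratase, hydroxyacyl-CoA dehydrogenase and thiolase steps had differences of a median size of 0.055. HADHA and HADHB form the mitochondrial trifunctional protein, which carries out these steps on long chains. HADHA was at 10.97 ± 0.41 in KNP and 10.98 ± 0.31 in YS, with a 95% interval of -0.67 to 0.64 for the difference. HADHB was at 11.53, 11.24, 11.87 and 11.23 on the KNP arrays and at 11.79, 11.89, 11.87 and 10.98 on the YS arrays. YS replicate 4 was the lowest of the 8, and without it the HADHB difference moved from -0.17 to -0.38; without YS replicate 2 it was -0.082. ECHS1, the short-chain hydratase, was at 13.72, 13.43, 12.35 and 12.65 in KNP and at 13.83, 13.81, 13.50 and 12.01 in YS. Within each breed it spread over more than 1 log2 unit, and its difference was -0.25 ± 0.48 (SE). The ECHS1 difference was -0.021 without KNP replicate 3, -0.68 without YS replicate 4, -0.78 with array weights and -1.21 on the 5 arrays of smaller 3'/5' difference. HADH, the hydroxyacyl-CoA dehydrogenase for shorter chains, was at 13.88 ± 0.11 and 13.82 ± 0.51. The thiolase ACAA2 was at 11.95 ± 0.65 and 11.96 ± 0.14, so that its KNP arrays were the more spread of the breeds and those of HADH the less.

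In peroxisomes, 2 of 3 members had the higher mean in KNP. ACAA1, the peroxisomal thiolase, was at 12.86, 13.71, 14.11 and 13.69 on the KNP arrays and at 13.60, 13.32, 12.93 and 11.93 on the YS arrays. KNP replicates 2 to 4 lay above all YS arrays and KNP replicate 1 among them. The difference of 0.65 ± 0.42 (SE) was 0.31 without YS replicate 4 and 0.89 without KNP replicate 1. HSD17B4, the D-bifunctional protein, was at 13.35, 12.56, 12.59 and 12.66 in KNP and at 13.52, 13.11, 13.22 and 12.66 in YS. KNP replicate 1 reached the upper YS values and the other 3 KNP arrays lay below all YS arrays, and the difference of -0.34 ± 0.29 (SE) was -0.53 without KNP replicate 1 and -0.21 without YS replicate 1. ACOX2, an oxidase for branched chains, was at 9.58 ± 0.41 against 9.36 ± 0.24. None of the 3 passed the test.

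**Figure D4:**
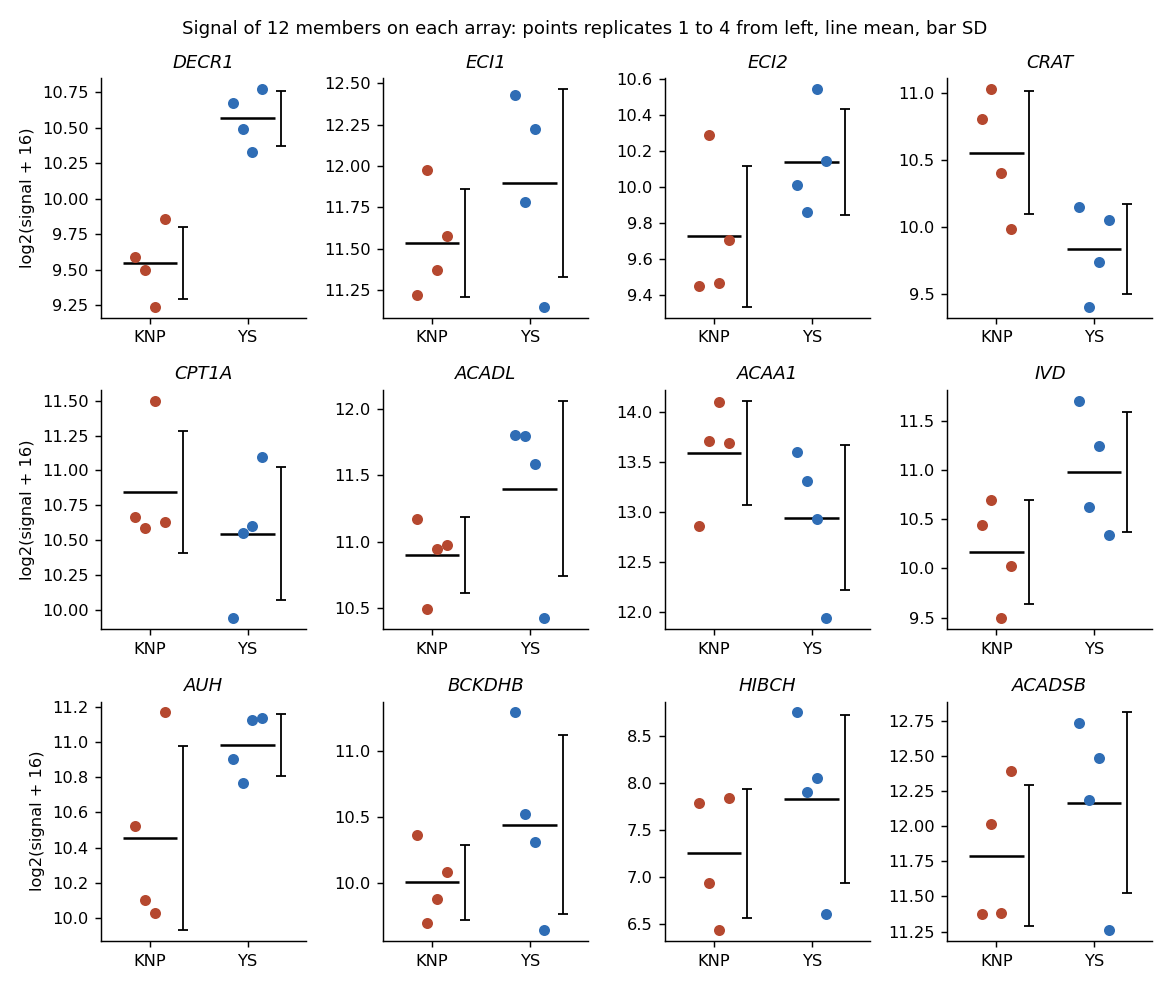
The log2(signal + 16) of 12 members is plotted for each array, with the mean as a line and the SD over 4 arrays as a bar; each panel has its own axis, which does not start at 0. DECR1 is the panel without overlap between breeds, and YS replicate 4, the rightmost YS point, is the lowest YS value for ECI1, ACADL, ACAA1, IVD, BCKDHB, HIBCH and ACADSB.

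Branched-chain amino acid breakdown opens with the transaminase BCAT2 and the branched-chain ketoacid dehydrogenase complex, whose subunits BCKDHA, BCKDHB and DBT commit the carbon to oxidation. BCAT2 was at 5.38, 7.04, 7.43 and 4.80 on the KNP arrays and at 7.91, 7.59, 8.31 and 5.56 on the YS arrays. It exceeded the no-target level on 2 KNP and 3 YS arrays, so its difference of -1.18 ± 0.74 (SE) is read partly from background. It was -1.78 without YS replicate 4 and -0.73 without KNP replicate 4. BCKDHB was at 10.36, 9.70, 9.88 and 10.09 in KNP and at 11.29, 10.52, 10.31 and 9.65 in YS. YS replicate 1 was the highest, and without it the difference moved from -0.43 to -0.15; without YS replicate 4 it was -0.70. BCKDHA, at 9.86 ± 1.13 against 9.56 ± 0.52, was the branched-chain member with the higher mean in KNP, and its KNP arrays ran from 8.23 to 10.74. Its difference of 0.30 was 0.84 without KNP replicate 1, then without overlap between breeds beside 5.67% of all probe sets, and 0.0085 without KNP replicate 3. DBT was at 9.59 ± 0.69 and 9.82 ± 0.10.

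The leucine arm had the lower mean in KNP for 3 of 3 measured genes. IVD, isovaleryl-CoA dehydrogenase, was at 10.44, 10.69, 9.49 and 10.02 on the KNP arrays and at 11.70, 10.62, 11.24 and 10.34 on the YS arrays. The 2 highest values were YS arrays and the 2 lowest KNP arrays, with overlap between. Its difference was -0.81 ± 0.39 (SE), with a 95% interval of -1.68 to 0.056 and an adjusted p of 1 in limma; it was -0.57 without YS replicate 1. IVD had 4 probe sets, all with the lower mean in KNP, by 0.64 to 0.99 in size. The probe set with the largest of these, chosen here after its values were seen, ran from 6.80 to 8.01 in KNP and from 8.15 to 9.13 in YS, without overlap. It was 1 of 2 member probe sets of 44 without overlap, the other being that of DECR1, beside 1.96% of all probe sets. For this IVD probe set, p in limma was 0.0183 unadjusted and 1 adjusted. AUH, which hydrates the leucine product methylglutaconyl-CoA, was at 10.52, 10.10, 10.02 and 11.17 in KNP and at 10.90, 10.77, 11.12 and 11.14 in YS. KNP replicate 4 was the highest of the 8 and the other 3 KNP arrays the lowest, with a difference of -0.53 ± 0.30 (SE) that was -0.77 without KNP replicate 4. MCCC2, a subunit of methylcrotonyl-CoA carboxylase, was at 11.90 ± 0.66 and 12.12 ± 0.52.

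The isoleucine and valine arms also had the lower mean in KNP for 3 of 3 measured genes. HIBCH, a hydrolase of valine breakdown, was at 7.79, 6.94, 6.43 and 7.84 on the KNP arrays and at 8.75, 7.90, 8.05 and 6.61 on the YS arrays. YS replicates 1 to 3 lay above all KNP arrays, and YS replicate 4 below all but KNP replicate 3. It was above the no-target level on 2 KNP and 3 YS arrays, and its difference of -0.58 ± 0.50 (SE) was -0.27 without YS replicate 1 and -0.98 without YS replicate 4. ACADSB, the dehydrogenase for short branched chains, was at 11.37, 12.02, 11.38 and 12.39 in KNP and at 12.74, 12.19, 12.48 and 11.26 in YS. The lowest of its 8 values was YS replicate 4, without which its difference moved from -0.38 to -0.68; without YS replicate 1 it was -0.19. PCCA, a subunit of propionyl-CoA carboxylase, was at 11.01 ± 0.21 and 11.17 ± 0.18, with a 95% interval of -0.69 to 0.36 for the difference. No gene of the arms passed the test.

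Probe sets of the same gene did not always follow each other across the arrays. Of the 8 members with several probe sets, 6 had all of them on the same side of 0, and ECI2 and ACADVL did not. In 4 of the 44 member probe sets the 3 arrays of largest 3'/5' difference were the 3 lowest: both of ETFDH and 1 each of HADHB and ACADSB. The share of all probe sets with this order, or with the reverse, is not given here. The count is therefore not read as particular to the members. The dimmer ETFDH probe set averaged 8.36 on these 3 arrays and 10.08 on the other 5, and the brighter, used here, 11.14 and 11.74. For ACADSB the unused probe set averaged 8.55 and 10.66, and its breed difference was -1.21 where that of the used probe set was -0.38. DECR1, with a single probe set, averaged 9.95 and 10.12. The positions of probe sets within their transcripts were not used here, and the part of RNA quality in these differences was not tested.

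**Figure D5:**
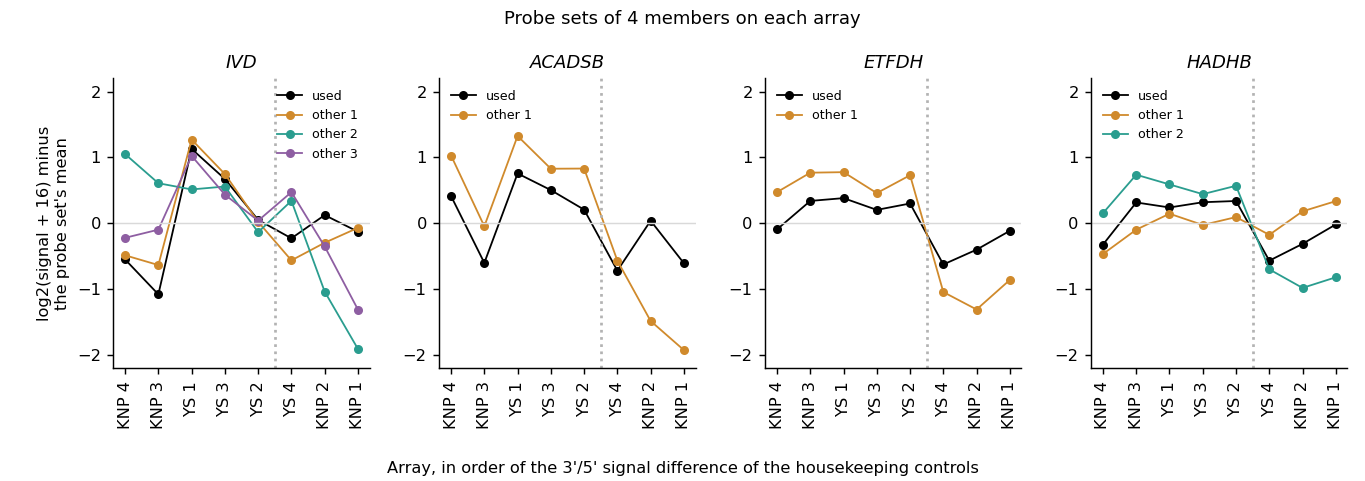
Centred log2(signal + 16) is plotted for every probe set of IVD, ACADSB, ETFDH and HADHB, with arrays ordered by rising 3'/5' difference of the housekeeping controls; the 3 arrays right of the dotted line have the largest. An unused probe set of ETFDH, of HADHB and of ACADSB is lowest on these 3 arrays, while those of IVD are highest on YS replicate 1 except for the one that is highest on KNP replicate 4.

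Other genes of the same routes, outside the 39, were read from the same fit. Of 44 genes for supply and control of oxidation, 24 were measured, with 17 higher and 7 lower means in KNP and 0 past the adjusted threshold in limma. ACOX3, a peroxisomal acyl-CoA oxidase, was the 1 gene of these 24 without overlap, beside 1.96% of all probe sets, at 10.12 to 10.59 in KNP and 9.57 to 10.05 in YS. Its difference was 0.55 ± 0.23 (SE), with an unadjusted p of 0.0427 and an adjusted p of 1 in limma. Of 23 other genes of branched-chain amino acid breakdown, 13 were measured, with 6 higher and 7 lower means, a median of -0.010 and 0 past the threshold. The 2 of smallest p were SLC3A2, the heavy chain of the leucine transporter, at 7.99 ± 0.80 in KNP and 8.67 ± 0.37 in YS, and BCKDK, the kinase that inhibits the ketoacid dehydrogenase complex, at 9.51 ± 0.31 and 9.94 ± 0.63.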

How the data were processed

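The deposited table held linear signal intensities of 24123 probe sets on 8 arrays, from biotin-labelled total RNA per the labels. After trimming 2% at either end, each array's mean was 500, as read from the values; how probes were summarised is not given in the labels. The authors' scaling was kept. After log2(signal + 16), 124 control probe sets and the 25% of the others with the lowest mean over 8 arrays were left out, which left 17999. Probe set names came from the platform's annotation; all 33 measured members kept their symbol when matched to RefSeq's pig genes by Entrez number. The breed comparison used limma 3.58.1 (R 4.3.3; lmFit, eBayes, two-sided, no covariate), tested first on simulated data. Arrays carry no counts, so 4 per breed limit the precision.

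The members, role groups, marker lists and tests were chosen with earlier results of these data known. All 39 members are accounted for. Values on every array are given for DECR1, for members without overlap between breeds or with an unadjusted p under 0.05, and for the 2 of largest difference in each role group. Other pathway genes are named by the same limits, or by the 2 smallest p. Alternatives changed the filter, pseudocount, scaling, variance model, array weights, replicate block, 3'/5' covariate and probe set rule, or left out arrays. Marker lists for adipocytes, skeletal muscle, fibroblasts, and T and NK cells are given in the text. Those for endothelium, macrophages, skin and red blood cells had 3 of 7, 2 of 5, 1 of 1 and 0 of 2 measured genes higher in KNP.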

Additional observations from a re-analysis of the deposited data

Results flagged for a closer look

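In 6 of 74 groups of 4 arrays examined, the highest or lowest array stood far from the other 3 of its breed (Dixon's ratio); chance marks about 1 in 20 such groups. YS replicate 4 was the lowest YS array for ACADL (10.42), HADHB (10.98) and PCCA (10.90). KNP replicate 3 was the highest KNP array for CPT1A (11.50), and KNP replicate 1 for HSD17B4 (13.35). CPT1B on YS replicate 2, at 4.40, was not above the no-target level. DECR1 had no such array in either breed.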

How the results depend on the processing

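The count of probe sets and of members past an adjusted p of 0.05 was 0 in each of 20 alternatives, where the smallest adjusted p over all probe sets ran from 0.0596 to 1. With the replicate block these counts were 0, and 509 probe sets had an unadjusted p under 0.05 in limma against 511 without it. Each replicate number holds 1 array per breed, so the block cannot change a difference, and that of DECR1 stayed -1.02 by design. Deviations of same-numbered arrays correlated between -0.19 and 0.13. The labels do not say whether the numbers pair the samples, and low correlations cannot exclude it. The count of members without overlap, 1, ran from 1 to 4 when 1 array was left out (4 without KNP replicate 1 or YS replicate 4, beside 5.67% and 6.33% of all probe sets). It was 2 when probe sets were averaged per gene, IVD besides DECR1, and 16 of 32 without the 3 arrays whose 3'/5' difference was largest, beside 26.9% of all probe sets; that last alternative was chosen after seeing the data, and fewer arrays overlap less by construction. The median of all members was -0.17, from -0.26 without YS replicate 4 to -0.095 without KNP replicate 2, and -0.29 without the 3 arrays. Of 359 values of the 18 members given on every array, picked mostly for large differences, 353 kept their sign and 0 passed the threshold. Of 296 values of the other 15 members, 34 changed sign, in 10 members. ACADVL and CPT2 had 6 each, HADHA 5 and ACAA2 and ETFB 4. Part of both sign counts was fixed in advance, since the filter, variance model and replicate block cannot change a difference. Nor can averaging probe sets where a gene has only 1. ACADS changed sign with array weights (-0.042), without the 3 arrays (-0.097) and in a range from -0.045 to 0.21 over single arrays left out, and ECI2 with the mean of its probe sets (0.090); for these the cause was not tested. BCAT2 was left out by the filter of 50%. Of the 33 members, 4 (CPT1B, CPT2, BCAT2, HIBCH) were not above the no-target level on every array.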
